A study of Rattus norvegicus with 6 samples.

Results

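The genes of sterol and fatty acid synthesis comprised 33 members: enzymes of cholesterol synthesis, enzymes that make, lengthen or desaturate fatty acids, and regulators and carriers of sterols. The members were chosen with earlier results of these data known. Every probe set with only 1 platform symbol, the current or an older symbol of a member, was taken. The older symbols were Sc4mol for Msmo1, Sc5dl for Sc5d and Scd1 for Scd. No measured value entered this choice of probe sets. It gave 57 of the 31099 probe sets on the array, and they covered 32 of the 33 members. Hmgcs1 was not analysed here. Of the 57 probe sets, 54 passed the filter on dim signals, and each of the 32 genes kept at least 1. The cells were neuronal progenitors from the cerebral cortex of rat embryos at E15.5, grown on fibronectin with 20 ng/ml bFGF, the growth factor on which these precursors proliferate in culture. One group was treated for 48 h with 1 µM corticosterone, the adrenal glucocorticoid that rats secrete under stress, and the other with its vehicle, DMSO, for the same time. Each group had 3 samples with an Affymetrix array for each sample, and corticosterone sample 1 was coupled to vehicle sample 1, and so on, in 3 couples. The labels name no strain and do not say whether couples stem from different cultures or rats. With the couple as a term of the model, the p-values measure only how the differences within couples varied over these 3 couples. That spread may be technical.

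Cholesterol is built from acetyl-CoA through mevalonate, isoprenoid units, squalene and lanosterol, and fatty acids are built from the same acetyl-CoA by carboxylation and repeated condensation. Transcription of both branches is driven by sterol regulatory element binding proteins, of which the product of Srebf2 acts mainly on sterol genes and that of Srebf1 mainly on fatty acid genes. Insig proteins hold these factors in the endoplasmic reticulum when sterols are plentiful, while oxysterol-activated liver X receptors raise Srebf1 and the exporter Abca1. Dividing neural precursors draw on both branches for new membrane, and the developing brain makes its own cholesterol because plasma lipoproteins do not cross into it.

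The promoters of 25 of the 32 measured members were found in RefSeq's table for assembly GRCr8, as 250 bases before to 50 bases after the gene's start. Those of Hsd17b7 and Abca1 are printed because these members had the largest fall and the largest rise. In them, capitals mark the CCAAT box, read as CCAAT or as its reverse complement ATTGG, and the E-box CACGTG.
Hsd17b7, chr13:84722705-84723004, minus strand: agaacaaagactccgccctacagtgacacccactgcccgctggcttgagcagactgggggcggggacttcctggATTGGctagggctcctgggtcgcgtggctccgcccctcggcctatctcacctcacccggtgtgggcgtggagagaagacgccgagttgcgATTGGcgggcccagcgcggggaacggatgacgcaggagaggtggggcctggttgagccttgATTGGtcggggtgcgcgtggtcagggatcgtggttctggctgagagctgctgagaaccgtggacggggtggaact
Abca1, chr5:72596424-72596723, minus strand: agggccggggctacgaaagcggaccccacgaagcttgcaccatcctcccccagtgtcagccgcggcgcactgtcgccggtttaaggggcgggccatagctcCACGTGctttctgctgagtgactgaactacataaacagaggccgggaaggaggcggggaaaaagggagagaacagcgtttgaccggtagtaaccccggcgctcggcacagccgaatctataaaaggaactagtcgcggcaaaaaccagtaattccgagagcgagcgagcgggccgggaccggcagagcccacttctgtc
The Hsd17b7 window held 3 ATTGG words and no CACGTG. The Abca1 window held 1 CACGTG and no CCAAT box. On both strands, a CCAAT box stood in 19 of the 25 members, in 11 of 14 of the sterol enzymes and in 4 of 6 of the fatty acid enzymes. It stood in 39.8% of the 8357 tested genes with a promoter in the table and 39.6% of all 27457 genes there. A gene with several promoters was counted when any of them held the word. The Sp1 word GGGCGG stood in 19 of 25, against 66.5% of tested genes and 36.0% of all genes. CACGTG stood in 4 of 25 (Abca1, Elovl5, Insig1 and Sc5d), against 10.5% of tested and 7.08% of all genes. The core of the glucocorticoid response element, ACANNNTGT, stood in 2 of 25 (Insig2 and Msmo1), against 3.96% of tested and 7.31% of all genes. The sterol regulatory element, searched as TCACNCCAC, stood in 0 of 25, against 1.21% of tested and 1.25% of all genes. None of these motifs lies within another. A match is a run of letters and not a bound site, and a missing match says only that these letters are not in the 300 bases searched.

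Signals are MAS5 intensities on a linear scale, and differences are given as corticosterone minus vehicle on the log2(signal + 28.6) scale, with the standard error after ±. Over all probe sets, 2953 of 18625 passed limma at an adjusted p of 0.05, which is 15.9%, with 1751 higher and 1202 lower. These counts were 1096 and 581 without couple 1, and 800 and 392 without couple 2. Counted once per gene, 1928 of 9910 genes passed (19.5%), of which 1158 rose (11.7%) and 770 fell (7.77%), and 3503 were at an unadjusted p under 0.05. The median log2 difference of all genes was −0.002, and it moved to −0.11 when each array was centred on its own median. The median signal was 124, 134 and 125 on the corticosterone arrays of couples 1, 2 and 3, against 108, 122 and 119 on the vehicle arrays. The share of probe sets above a background signal of 22.8 ranged from 78.3% to 80.6% on corticosterone arrays and from 75.3% to 78.1% on vehicle arrays. The 3′ to 5′ signal ratio of beta-actin, a sign of RNA quality, ranged from 1.76 to 2.03 on corticosterone arrays and from 1.55 to 2.12 on vehicle arrays. The glucocorticoid receptor targets Errfi1, Per1, Sgk1 and Fkbp5 rose by 1.94, 1.46, 0.82 and 0.38 on the log2 scale, and the receptor gene Nr3c1 differed by −0.21 (limma, adjusted p = 0.15). Of 8 neural progenitor markers, 7 were measured and none lay at or under background on all arrays, and their summed signal ranged from 62114 to 68970.1 on corticosterone arrays and from 56063 to 68101 on vehicle arrays. The summed signal of 6 astrocyte markers ranged from 28434 to 33161 on corticosterone arrays and from 15844 to 22306 on vehicle arrays, so the groups did not overlap, and 3 of the 4 tested rose. Sums overlapped for markers of neurons, the oligodendrocyte lineage, endothelium and the meningeal, pericyte and fibroblast list. Within these lists, 1 of 5 tested neuron markers and 1 of 4 tested oligodendrocyte lineage markers fell, the second being Pdgfra at −1.64, and 2 of 4 tested meningeal, pericyte and fibroblast markers rose. The 5 microglial markers summed to 219 to 233 on corticosterone arrays and 173 to 203 on vehicle arrays, and Itgam lay at or under background on every array. The part of astrocyte markers, or of any other cell type, in the results was not tested, and in bulk RNA fewer cells of a type and less RNA per cell cannot be told apart.

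The sterol synthesis enzymes were mostly lower after corticosterone. Of 17 measured enzymes 10 fell, 7 did not pass limma's adjusted threshold, and 13 were at an unadjusted p under 0.05 in either direction. The members that fell ran from Acat2 at the first step through Mvd, Idi1, Fdps, Sqle and Lss to Msmo1, Nsdhl, Hsd17b7 and Sc5d at the late steps. The median log2 difference of the 17 was −0.25, against −0.002 for all genes, and single genes ranged from −0.55 (Hsd17b7) to 0.08 (Tm7sf2). The median was −0.22, −0.21 and −0.23 in couples 1, 2 and 3 taken one at a time, and 15 of the 17 were lower in each couple, against 27.2% of all genes tested. The share that fell, 10 of 17, stood against 7.77% of all genes. The count rests on the model: with the couple left out as a term 0 of 17 passed limma, and without the intensity trend in the variance 2 passed. With the couple left out, 8 of the 17 were at an unadjusted p under 0.05, against 1943 of all 9910 genes. Acat2, Mvd, Fdps, Lss and Nsdhl did not pass without couple 2, Lss did not pass without couple 1, and Fdps and Nsdhl did not pass without couple 3, which left 5, 9 and 8 enzymes that fell.

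**Figure D1:**
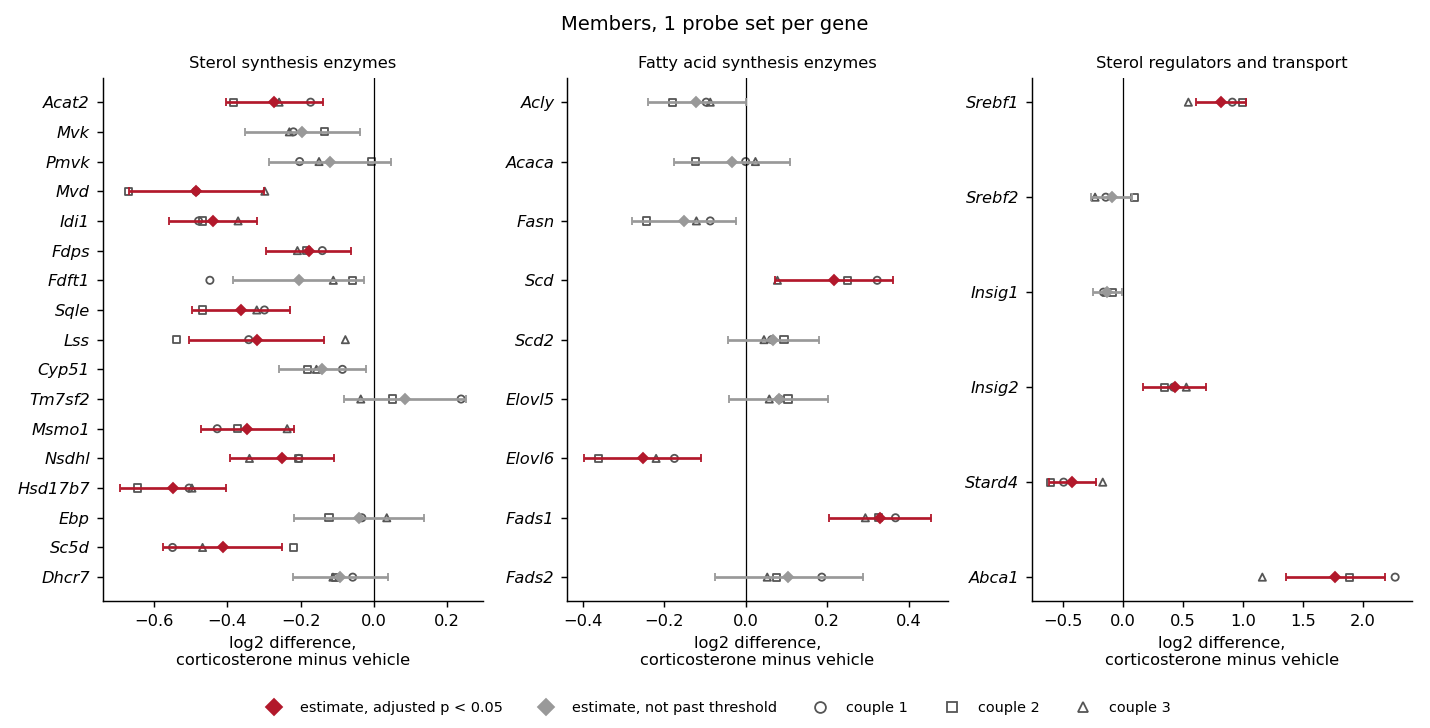
Log2 difference of each measured member, corticosterone minus vehicle, on the log2(signal + pseudocount) scale, in 3 panels for the sterol enzymes, the fatty acid enzymes, and the regulators and carriers. Small points are the 3 couples, large points the limma estimate and bars its 95% confidence interval; 16 of the 17 sterol enzymes lie below 0, and Abca1 lies farthest above 0 at 1.77.

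The first steps make mevalonate and turn it into the isoprenoid unit. Acat2, the cytosolic thiolase that joins 2 acetyl-CoA molecules, gave signals of 6824, 7524 and 7990.2 on the corticosterone arrays of couples 1, 2 and 3, against 7698, 9819.6 and 9568 on the vehicle arrays. It was lower in each couple although the groups overlapped across couples, and it fell by 0.27 ± 0.06 on the log2 scale (limma, adjusted p = 0.011). Mvk, mevalonate kinase, gave 1326, 1444 and 1503 on corticosterone arrays, against 1549, 1589.8 and 1769 on vehicle arrays. Every corticosterone value lay below every vehicle value, but the difference of −0.20 ± 0.07 did not pass (adjusted p = 0.091). Pmvk, the phosphomevalonate kinase, gave 1219, 1415 and 1561 on corticosterone arrays, against 1407, 1422 and 1736 on vehicle arrays, a difference of −0.12 with adjusted p = 0.33. Mvd, the decarboxylase that yields isopentenyl diphosphate, gave 1065, 1145 and 1582 on corticosterone arrays, against 1504, 1838 and 1952 on vehicle arrays. Corticosterone couple 3 overlapped vehicle couple 1, and Mvd fell by 0.48 ± 0.08, a 1.40-fold lower level (adjusted p = 0.0028).

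Idi1 interconverts the isoprenoid isomers, and it was measured by 2 probe sets. The brighter gave 9943, 8354 and 9559 on corticosterone arrays, against 13867, 11564 and 12372 on vehicle arrays. All corticosterone arrays lay below all vehicle arrays, and Idi1 fell by 0.44 ± 0.05 (limma, 1.36-fold lower, adjusted p = 0.00037). The other probe set gave 4515, 4431 and 5664 on corticosterone arrays, against 7121, 6511 and 7597 on vehicle arrays, again without overlap (log2 difference −0.54, adjusted p = 0.00024). Fdps, which makes farnesyl diphosphate, gave 12765, 12651 and 13962 on corticosterone arrays, against 14079, 14382 and 16138 on vehicle arrays. The groups did not overlap, but the fall was small, at 0.18 ± 0.05 (adjusted p = 0.041). Fdft1, squalene synthase and the first enzyme committed to sterols, gave 2159.9, 2457 and 2775 on corticosterone arrays, against 2956, 2560.4 and 2998 on vehicle arrays. Its 2 probe sets differed by −0.21 (adjusted p = 0.12) and −0.15 (adjusted p = 0.24), and neither passed.

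Squalene epoxidase and lanosterol synthase, the enzymes that lead from squalene to lanosterol, both fell. Sqle gave 4683, 4952 and 6164 on corticosterone arrays, against 5769, 6868 and 7701 on vehicle arrays. It was lower in each couple, with corticosterone couple 3 above vehicle couple 1, and fell by 0.36 ± 0.06 (limma, 1.29-fold lower, adjusted p = 0.0023). Lss gave 2735, 2195 and 3391 on corticosterone arrays, against 3475, 3203 and 3582 on vehicle arrays, and fell by 0.32 ± 0.08 (adjusted p = 0.025). Its other probe set, with 634, 487 and 643 on corticosterone arrays against 752, 767 and 789 on vehicle arrays, fell as well, by 0.38 (adjusted p = 0.027). Cyp51, lanosterol demethylase, gave 12212, 10457 and 11045 on corticosterone arrays, against 12959.9, 11862 and 12314 on vehicle arrays in its brighter probe set. That probe set differed by −0.14 and did not pass (adjusted p = 0.10). The dimmer one, with 3766, 4578 and 5582 on corticosterone arrays and 4643, 5746 and 6782 on vehicle arrays, passed with a difference of −0.30 (adjusted p = 0.0049), so the 2 probe sets of Cyp51 gave different calls and the same direction. Tm7sf2, a sterol reductase, was the only enzyme of the list with a positive difference: 2036, 1824 and 1848 on corticosterone arrays, against 1722, 1759.5 and 1896 on vehicle arrays, or 0.08 (adjusted p = 0.51), which turned to −0.02 when arrays were centred on their medians.

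The late steps strip methyl groups from the ring and move its double bonds. Msmo1, the methylsterol monooxygenase, gave 10647, 10214 and 11085 on corticosterone arrays, against 14337, 13239 and 13067 on vehicle arrays. The groups did not overlap, and Msmo1 fell by 0.35 ± 0.06 (limma, 1.27-fold lower, adjusted p = 0.0022). Its partner Nsdhl, the sterol dehydrogenase and decarboxylase, gave 3087, 2892 and 2831 on corticosterone arrays, against 3563, 3339.8 and 3591 on vehicle arrays. Nsdhl also fell without overlap, by 0.25 ± 0.06 (adjusted p = 0.023), and its second probe set by 0.25 (adjusted p = 0.04). Hsd17b7, the ketosteroid reductase of the same complex, gave 2327, 2087 and 2732 on corticosterone arrays, against 3313, 3280.4 and 3868 on vehicle arrays. Its mean was 2382 ± 326 with corticosterone and 3487 ± 330.0 with vehicle (SD, n = 3 each), with no overlap. It had the largest fall of any member, 0.55 ± 0.07, a 1.46-fold lower level (adjusted p = 0.00028). Its second probe set gave 754, 437 and 727 on corticosterone arrays, against 872, 816 and 834 on vehicle arrays, and passed at −0.42 (adjusted p = 0.046). So all 3 enzymes of the demethylation complex that act after Cyp51 were lower.

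Ebp, the sterol isomerase, gave 1045, 892 and 914 on corticosterone arrays, against 1070.0, 974 and 891 on vehicle arrays, a difference of −0.04 (limma, adjusted p = 0.79). Sc5d, the sterol desaturase, gave 2439.7, 3625 and 3287 on corticosterone arrays, against 3586, 4223 and 4557 on vehicle arrays. Sc5d was lower in each couple with corticosterone couple 2 just above vehicle couple 1, and fell by 0.41 ± 0.07 (1.33-fold lower, adjusted p = 0.0033). Its other probe sets fell by 0.30 (adjusted p = 0.013) and 0.36 (adjusted p = 0.0034). Dhcr7, the reductase that forms cholesterol itself, gave 3915, 4388 and 5042 on corticosterone arrays, against 4076, 4722 and 5450.1 on vehicle arrays. Dhcr7 was lower in each couple, and its difference of −0.09 did not pass (adjusted p = 0.34).

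**Figure D2:**
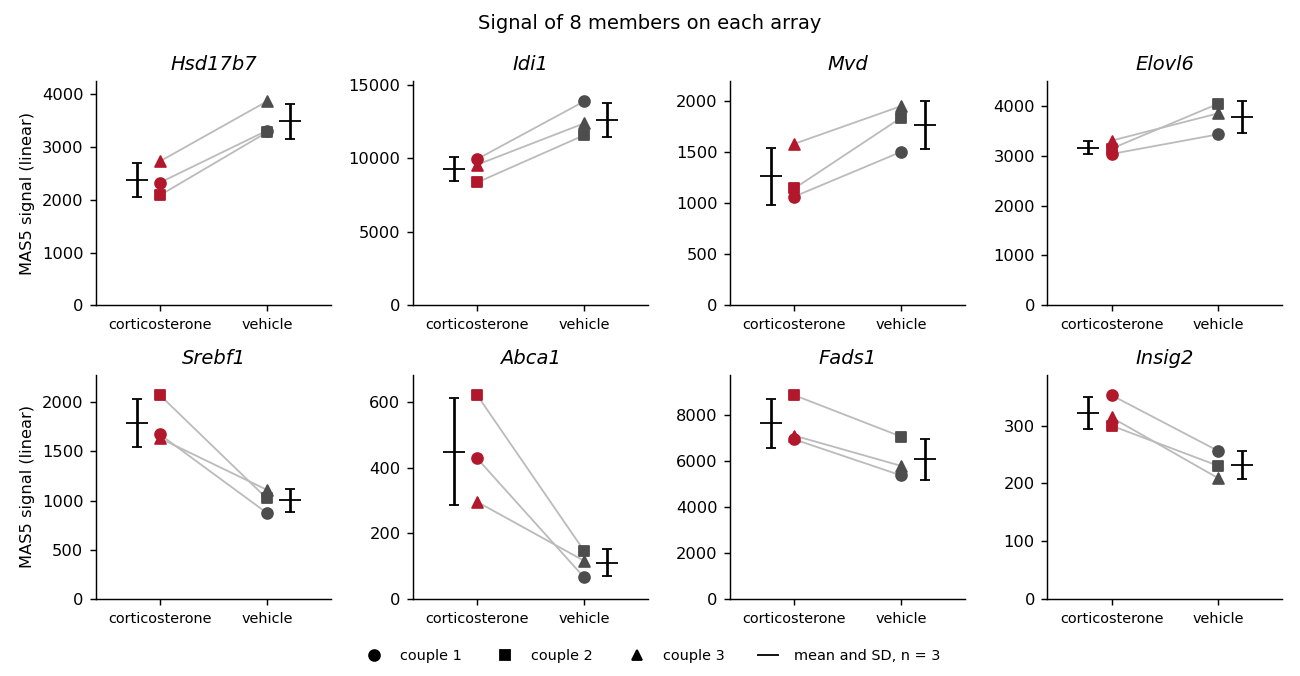
MAS5 signal on each array, 1 panel per gene with its own linear axis, for Hsd17b7, Idi1, Mvd, Elovl6, Srebf1, Abca1, Fads1 and Insig2; corticosterone stands left of vehicle in each panel, points are the 3 couples, and the bar is the mean with its SD. Corticosterone points lie wholly below the vehicle points for Hsd17b7, Idi1 and Elovl6 and wholly above them for Srebf1, Abca1 and Insig2.

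The regulators and carriers of sterols did not move one way. Of the 6, the regulators Srebf1 and Insig2 and the exporter Abca1 rose, the carrier Stard4 fell, and Srebf2 and Insig1 did not pass. These calls, 3 higher and 1 lower, stood against 11.7% and 7.77% of all genes. Srebf1 was the only member that kept its call under every alternative run, with adjusted p from 0.00012 to 0.027. Abca1 kept its call in each alternative that tested it, with adjusted p from 4.4e-05 to 0.022, but it was too dim to be tested under the stricter filter. The astrocyte marker sum, which did not overlap between the groups, was higher on the same corticosterone arrays.

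Srebf1 encodes the factor that drives fatty acid genes. Its brighter probe set gave 1672, 2071 and 1633 on corticosterone arrays, against 875, 1022 and 1109.7 on vehicle arrays, with means of 1792 ± 242 and 1002 ± 119 (SD, n = 3 each). Every corticosterone array lay above every vehicle array, and Srebf1 rose by 0.82 ± 0.09 (limma, 1.76-fold, adjusted p = 0.0002). The second probe set, at 536, 659 and 502 on corticosterone arrays and 236, 352 and 338 on vehicle arrays, rose by 0.83 ± 0.12 (adjusted p = 0.0011). Srebf2, the factor that drives sterol genes, gave 2192, 1781 and 1986 on corticosterone arrays, against 2422, 1664 and 2336 on vehicle arrays. The difference of −0.09 did not pass (adjusted p = 0.48), and couple 2 ran opposite to the other couples. A second Srebf2 probe set was under the filter on dim signals and was not tested.

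Insig1, a retention protein and itself a target of the factors it holds back, gave 7536, 7721 and 8151 on corticosterone arrays, against 8428, 8214 and 8977 on vehicle arrays. All corticosterone values lay below all vehicle values, yet the difference of −0.13 ± 0.05 did not pass (limma, adjusted p = 0.14). Insig2, its relative, gave 353, 300.2 and 314 on corticosterone arrays, against 256, 230.4 and 209 on vehicle arrays. Insig2 rose without overlap by 0.43 ± 0.12 (1.35-fold, adjusted p = 0.032), but its second probe set differed by 0.08 with overlap (adjusted p = 0.78). The Insig2 call was lost under every way of leaving out 1 couple (adjusted p = 0.11 each), and under the alternatives as a whole its adjusted p ranged from 0.033 to 0.18. Stard4, a carrier that moves cholesterol through the cytosol, gave 1234, 1363 and 1819 on corticosterone arrays, against 1748, 2079 and 2047 on vehicle arrays. Stard4 was lower in each couple, with corticosterone couple 3 above vehicle couple 1, and fell by 0.42 ± 0.09 (1.34-fold lower, adjusted p = 0.0082). A second probe set fell by 0.32 (adjusted p = 0.033), and its remaining probe set differed by −0.05 (adjusted p = 0.86). The Stard4 call was lost without couple 2 (−0.33, adjusted p = 0.11, with a range of 0.0028 to 0.21 over the alternatives).

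Abca1 exports cholesterol to lipoproteins, and it had the largest change of all members. Its brightest probe set gave 428, 621 and 296 on corticosterone arrays, against 66.3, 147 and 116 on vehicle arrays, with means of 448 ± 163 and 110.0 ± 40.9 (SD, n = 3 each). The spread among corticosterone arrays was wide, but the lowest of them lay above the highest vehicle array. Abca1 rose by 1.77 ± 0.19, or 3.41-fold (limma, adjusted p = 0.00012). A second probe set gave 169.6, 283 and 127 on corticosterone arrays, against 41.1, 72.5 and 30.3 on vehicle arrays, and rose by 1.51 (adjusted p = 0.00023). Another rose by 1.17 (adjusted p = 0.01), with overlap and with 1 vehicle array at or under background. The fourth was too dim to be tested, at 112, 175 and 86.4 on corticosterone arrays and 7.67, 35.8 and 12.1 on vehicle arrays, with 2 of the vehicle arrays at or under background. All 4 were higher on corticosterone arrays in each couple.

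The fatty acid synthesis enzymes did not shift together. Of 9 enzymes, Scd and Fads1 rose, Elovl6 fell and 6 did not pass, against 11.7% of all genes higher and 7.77% lower, and 5 were at an unadjusted p under 0.05. The median log2 difference was 0.07, against −0.25 for the sterol enzymes and −0.002 for all genes, and the range was −0.25 to 0.33. The median turned to −0.04 when arrays were centred on their medians, and the differences of Scd2, Elovl5 and Fads2, which did not pass, changed sign with it. The difference between the sterol and the fatty acid enzymes was not tested. Scd did not pass without couple 1 or without couple 2, and Elovl6 did not pass without couple 2 or without couple 3. With the couple left out as a term 0 of the 9 passed limma. In that fit 3 were at an unadjusted p under 0.05, against 1943 of all 9910 genes.

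The enzymes that supply and condense carbon units did not pass, and their brightest probe sets had small negative differences. Acly, which makes cytosolic acetyl-CoA from citrate for both branches, gave 9239.9, 9743 and 10823 on corticosterone arrays, against 9882, 11033 and 11499 on vehicle arrays (log2 difference −0.12, limma adjusted p = 0.16). Acaca, acetyl-CoA carboxylase, gave 3012, 3104 and 3213 on corticosterone arrays, against 3011, 3385 and 3160.2 on vehicle arrays. Its 2 probe sets differed by −0.03 and 0.22, and neither passed (adjusted p = 0.78 and 0.32). Fasn, fatty acid synthase, gave 7382, 7714 and 8240.1 on corticosterone arrays, against 7843, 9142 and 8961 on vehicle arrays. This probe set was lower in each couple, and the probe sets differed by −0.15 (adjusted p = 0.11) and −0.07 (adjusted p = 0.59).

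Elovl6 lengthens the saturated product of Fasn. Its brighter probe set gave 3039, 3145 and 3306 on corticosterone arrays, against 3433, 4049 and 3856 on vehicle arrays. The groups did not overlap, and Elovl6 fell by 0.25 ± 0.07 (limma, 1.19-fold lower, adjusted p = 0.024). The second probe set, at 2253, 2328 and 2271 on corticosterone arrays and 2947, 3553 and 3446 on vehicle arrays, fell by 0.53 ± 0.07 (1.44-fold lower, adjusted p = 0.00054). Elovl5, which lengthens polyunsaturated chains, gave 6922, 8572 and 8327 on corticosterone arrays, against 6534, 7973 and 7999 on vehicle arrays. This probe set was higher in each couple, but differences of 0.08 and 0.15 in its 2 probe sets did not pass (adjusted p = 0.36 and 0.4).

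Of the desaturases, Fads1 and Scd rose and Fads2 did not pass. Fads1, which puts a double bond into polyunsaturated chains, gave 6945, 8867 and 7109 on corticosterone arrays, against 5375, 7065 and 5791 on vehicle arrays. It was higher in each couple, by 0.37, 0.33 and 0.29, and overlapped only across couples, and it rose by 0.33 ± 0.06 (limma, 1.26-fold, adjusted p = 0.0026). Fads2, the desaturase of the preceding step, gave 925, 971 and 857 on corticosterone arrays, against 809.5, 919.5 and 825 on vehicle arrays, a difference of 0.10 (adjusted p = 0.44). Scd, a stearoyl-CoA desaturase that makes monounsaturated chains, gave 5436, 5798 and 5257 on corticosterone arrays, against 4342, 4870.1 and 4978 on vehicle arrays. Scd rose without overlap by 0.22 ± 0.07 (adjusted p = 0.044), and this call was lost when arrays were centred on their medians (0.11, adjusted p = 0.25, with a range of 0.023 to 0.27 over the alternatives). Scd2, the stearoyl-CoA desaturase that predominates in brain, gave 20871, 24422 and 24314 on corticosterone arrays, against 19967, 22872 and 23560.1 on vehicle arrays in its brightest probe set. That probe set differed by 0.07 and did not pass (adjusted p = 0.41). Of its 3 other tested probe sets, 1 rose by 0.38 (adjusted p = 0.0015), at 6541, 4899 and 5386 on corticosterone arrays and 4818, 3921 and 4136 on vehicle arrays. Another rose by 0.73 (adjusted p = 0.03), at 481, 528 and 428 on corticosterone arrays and 315, 169 and 386 on vehicle arrays. The last differed by 0.06 (adjusted p = 0.76). Scd and Scd2 are close paralogs, so their probe sets may share target.

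Of the 32 measured members, 17 had more than 1 tested probe set. The probe sets of a gene agreed in sign for each of these genes except Acaca, whose probe sets lay on either side of 0 and did not pass. No gene had probe sets that passed in opposite directions. Calls were shared by every tested probe set for Hsd17b7, Idi1, Lss, Nsdhl, Sc5d, Elovl6, Srebf1 and Abca1, and by some but not all for Cyp51, Insig2, Stard4 and Scd2. Probe sets of a gene share the RNA of the same samples and are no replicates.

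**Figure D3:**
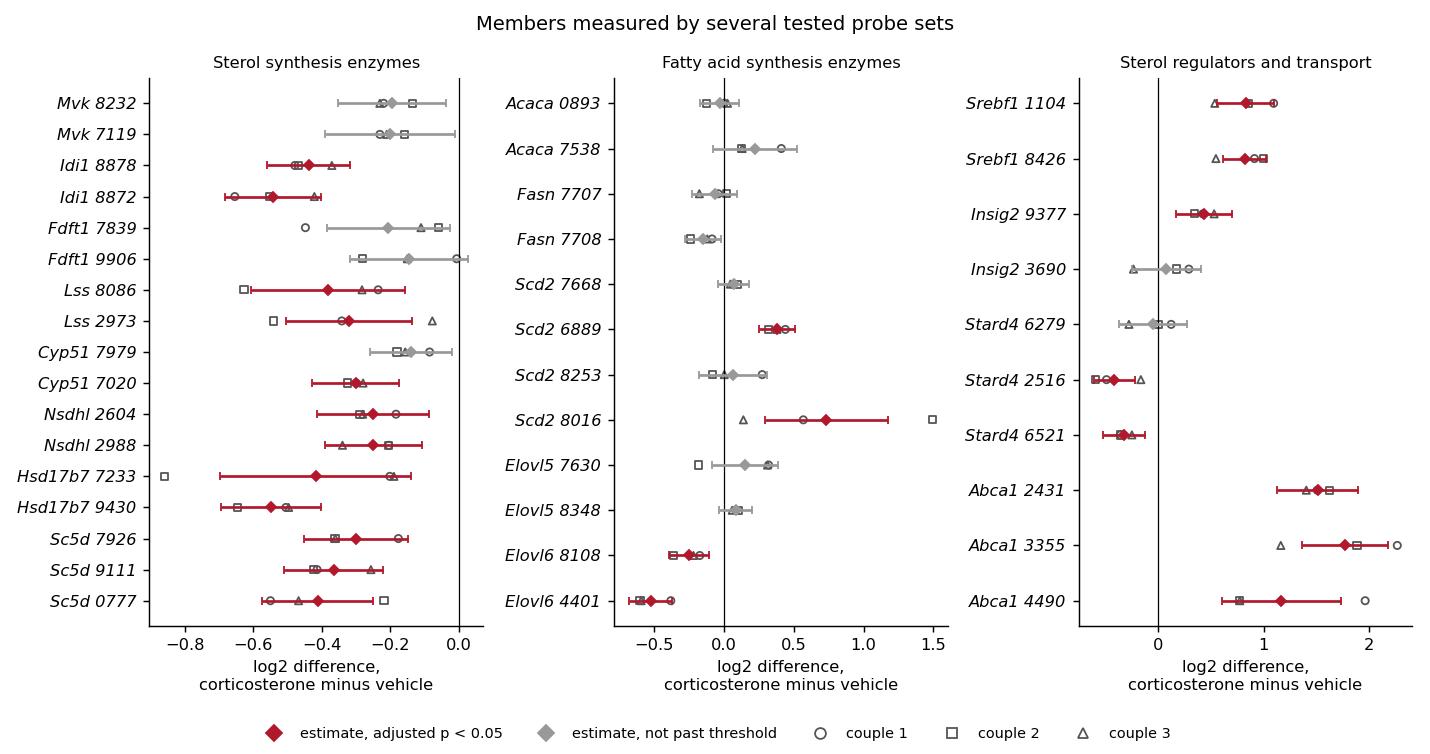
Log2 difference, corticosterone minus vehicle, of every tested probe set of the members with more than 1, with bars for the 95% confidence interval; each row is labelled by the gene and the last digits of the probe set. Small points are the 3 couples and large points the limma estimates. Within a gene the estimates lie on the same side of 0 except for Acaca, while points of single couples cross 0 in other genes too, such as Insig2 and Elovl5.

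Genes of neighbouring pathways were taken from lists chosen for their roles, with earlier results of these data known. Of 13 other sterol pathway genes tested, Cyb5r3 rose and Lbr fell, and 11 did not pass, with a median of −0.02. That share of calls, 2 of 13, was not above the 19.5% of all genes that passed. Cyb5r3, a reductase that feeds electrons to sterol and fatty acid desaturation, gave 1936, 1869 and 1972 on corticosterone arrays, against 1172, 1446 and 1538 on vehicle arrays, without overlap (0.48, limma, adjusted p = 0.0034). Lbr, a nuclear envelope protein with sterol reductase activity, gave 888, 658 and 644 on corticosterone arrays, against 1142, 849 and 738 on vehicle arrays (−0.30, adjusted p = 0.037). Lbr was lower in each couple, though the groups overlapped, and its call was lost without couple 1 (−0.27), without couple 2 (−0.27) and without the filter on dim signals.

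Of 15 cholesterol handling genes tested, with 6 more under the filter, the median was 0.06, 3 rose, 2 fell, and the other 10 missed the threshold, against 11.7% of all genes higher and 7.77% lower. Soat1, which esterifies cholesterol for storage, gave 1194, 1050.2 and 1290.1 on corticosterone arrays, against 781, 761 and 840.2 on vehicle arrays. It rose without overlap by 0.55 (limma, adjusted p = 0.0011), and so did the lysosomal cholesterol carrier Npc2, by 0.40 (adjusted p = 0.0025), and the phospholipid acyltransferase Lpcat3, by 0.30 (adjusted p = 0.047). The Lpcat3 call was lost without couple 1 (0.20), without couple 2 (0.27), with centred arrays (0.19) and with the mean of its probe sets (0.22), and its other probe set differed by 0.15 and did not pass (adjusted p = 0.38). The lipoprotein receptors Lrp1 and Lrp8 fell. Lrp1 gave 978, 1495 and 2249 on corticosterone arrays, against 1827, 2243 and 2819 on vehicle arrays (−0.59, adjusted p = 0.0019). Lrp8 gave 975, 954 and 977 on corticosterone arrays, against 1274, 1233 and 1217 on vehicle arrays (−0.35, adjusted p = 0.011). Lrp8 was separated between the groups, while Lrp1 overlapped across couples and was lower in each couple. The Lrp8 call was lost without couple 1 (−0.33) and without couple 2 (−0.34).

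Of 22 other fatty acid and glycerolipid genes tested, with 5 more under the filter, the median was 0.05, 2 rose, 1 fell, and the other 19 missed the threshold. These calls were no larger a share than the 19.5% of all genes that passed. Fads3, a desaturase relative, gave 275, 313 and 152 on corticosterone arrays, against 133, 123 and 148 on vehicle arrays, and rose by 0.70 (limma, adjusted p = 0.037). Its groups did not overlap, but couple 3 differed by 0.03 and the call was lost without couple 1 or without couple 2. Me1, the malic enzyme that supplies NADPH for fatty acid synthesis, rose by 0.43 (adjusted p = 0.0086), at 1219, 1320.3 and 979 on corticosterone arrays and 763, 1022 and 801 on vehicle arrays. Lpin2, a phosphatidate phosphatase, fell by 0.51 (adjusted p = 0.0043), at 536, 543 and 607 on corticosterone arrays and 885, 714 and 846 on vehicle arrays. Corticosterone and vehicle arrays did not overlap for Lpin2 and overlapped for Me1. The Me1 call was lost without couple 1 (0.32) and without couple 2 (0.47). With the mean of its probe sets Lpin2 differed by −0.19 and did not pass (adjusted p = 0.32, with a range of 0.0023 to 0.32 over the alternatives).

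The genes of fatty acid oxidation, the route that breaks fatty acids down in mitochondria and peroxisomes, were mostly higher. Of 18 tested, 11 rose and 7 did not pass, with a median log2 difference of 0.40 and a range of −0.05 to 1.17, and 15 were higher in each couple, against 27.7% of all genes. The share that rose stood against 11.7% of all genes. Cpt1c, a brain form of carnitine palmitoyltransferase, gave 135, 209.7 and 142 on corticosterone arrays, against 53.2, 150.3 and 11.6 on vehicle arrays, the last of which was under background. Its difference of 1.17 passed (limma, adjusted p = 0.013), although the groups overlapped and, without couple 3, it was 0.71 and did not pass. Ech1, an isomerase for unsaturated fatty acids, gave 1322, 1528 and 919 on corticosterone arrays, against 652, 597 and 569 on vehicle arrays, and rose by 0.99 ± 0.11 (adjusted p = 0.00021). Acadvl, the dehydrogenase for very long chains, gave 602, 683 and 556 on corticosterone arrays, against 315, 466 and 309 on vehicle arrays, and rose by 0.73 ± 0.11 (adjusted p = 0.001). Ech1 and Acadvl did not overlap between the groups. The others past the threshold were Ppargc1a, Cpt1a, Cpt2, Acadm, Acaa2, Eci1, Eci2 and Decr1, named after their values were seen. With the couple left out as a term 2 of the 18 passed, without the intensity trend 5 did, and without couple 1 the count was 7. The astrocyte marker sum was higher on the same corticosterone arrays.

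**Figure D4:**
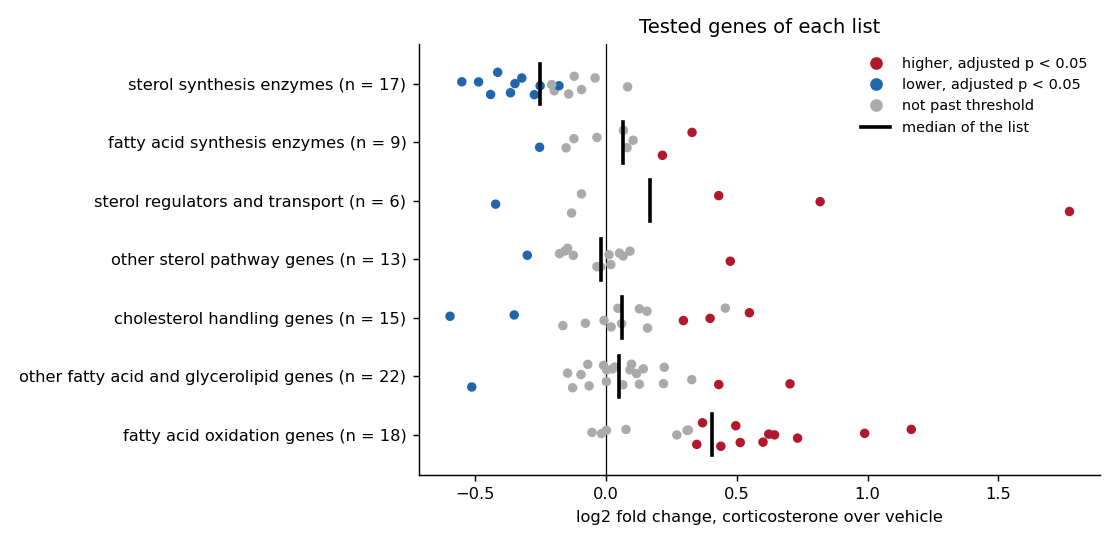
Log2 difference, corticosterone minus vehicle, of every tested gene in the 7 lists, with 1 point per gene, red where it rose, blue where it fell and grey where it did not pass, and a bar at the list's median. The median lies at −0.25 for the sterol enzymes and at 0.40 for the fatty acid oxidation genes, and the other lists lie between −0.02 and 0.17.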

How the data were processed

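RNA of 6 samples was measured on 1 Affymetrix array each. The authors deposited 1 linear intensity for every probe set and array, computed by MAS5 per the submitters' processing notes. Neither its version nor its detection calls are given here. After trimming 2% at both ends, the mean intensity came to 500.0 for all arrays, so they had been scaled to one mean. Labelling started from 3 µg of total RNA with an oligo(dT) primer, per the labels' protocols, which weights signals towards the 3′ end. The number of arrays limits the precision.

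The 57 control probe sets were left out. Genes were named from the platform annotation, which gives 1 symbol for 20826 probe sets, several for 436 and none for 9780, and only probe sets with 1 symbol were used. Tests used log2(signal + 28.6) of the deposited intensities, with the 25th percentile of the whole table as pseudocount, so that folds of dim genes are understated. Probe sets in the lowest 40% by mean log2 signal were not tested. Treatment and couple were the terms of a linear model in limma 3.58.1 under R 4.3.3, with lmFit followed by eBayes with its trend option, and adjusted p-values are two-sided Benjamini-Hochberg values over 18625 probe sets. The background signal was set at the 95th percentile over 27 probe sets for bacterial controls.

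The pairing comes from the design text of the series, which speaks of couples. As a check, the deviation of each sample from its group's mean was correlated across probe sets between the groups. This gave 0.57, 0.52 and 0.35 for samples of one number and −0.48 to 0.003 for samples of different numbers. Deviations from a group's mean cancel out, so the second values are not independent of the first. The check cannot tell a shared culture from shared processing. Several probe sets of a gene were counted once, by its brightest probe set in mean log2 signal. The members and the lists were chosen with earlier results of these data known. Every member is named. In the 4 other lists, the 3 genes with the largest rise and the 3 with the largest fall past the threshold are named. Marker lists were described by summed signal, with the brightest probe set of each gene. The summed signal was 7204 to 10552 on corticosterone and 9636 to 10586 on vehicle arrays for neuron markers, and 16733 to 23043 and 19967 to 24487 for the oligodendrocyte lineage. It was 493 to 2705 on corticosterone and 322 to 1591 on vehicle arrays for the meningeal, pericyte and fibroblast list, and 94.0 to 156 and 50.1 to 111 for endothelium. Promoters are RefSeq's, assembly GRCr8, and motifs were searched on both strands. The alternatives changed the block, the scaling, the pseudocount, the filter, the variance trend, the use of several probe sets and the couples included.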

Additional observations from a re-analysis of the deposited data

How the results depend on the processing

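No alternative reversed the sign of a member past the threshold. Of the 17 members past the threshold, 2 kept their call without the replicate block (Abca1 and Srebf1), 4 without the intensity trend, 8 without couple 2, 11 without a filter, 13 without couple 3 and 14 without couple 1. Quantile scaling, centring on array medians and the mean of a gene's probe sets kept 15 each, the smaller pseudocount kept 17, and the stricter filter kept all 16 still tested. Srebf1 alone kept its call under all of these alternatives, and Abca1 kept its own under all but the stricter filter, which left it untested. The choice of model therefore sets most counts, and small falls near the threshold, such as that of Fdps, depend on it. The cause of these changes was not tested.

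The paired fit is the one reported. Without the replicate block, 362 probe sets rose and 55 fell, and the counts were 0 for sterol enzymes that fell, 0 and 0 for fatty acid enzymes that rose and fell, 0 for regulators that fell, 0 and 0 for the other sterol genes, 1 and 0 for cholesterol handling, 0 and 0 for the other fatty acid genes and 2 for oxidation genes that rose. In that fit limma's unadjusted p was under 0.05 for 8 of 17 sterol enzymes, 3 of 9 fatty acid enzymes and 4 of 6 regulators. The same held for 1 of 13 other sterol genes and 4 of 15 cholesterol handling genes. It held for 3 of 22 other fatty acid genes and 12 of 18 oxidation genes. Over all 9910 genes, 1943 were at an unadjusted p under 0.05, and 261 rose and 36 fell past the adjusted threshold. Without the intensity trend, 960.0 probe sets rose and 302 fell, and the same counts were 2, 0 and 0, 0, 0 and 0, 1 and 0, 0 for the other fatty acid genes that rose, and 5. At an unadjusted p under 0.05 were 9, 2, 4, 2, 5, 3 and 13 genes of these lists, in the same order. Over all 9910 genes, 2787 were at an unadjusted p under 0.05 without the trend, and 623 rose and 176 fell past the adjusted threshold.

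With arrays centred on their medians, 2846 probe sets fell, as did 3 fatty acid enzymes, 2 regulators, 3 other sterol genes and 3 other fatty acid genes, and 1 fatty acid enzyme rose. The median of the sterol enzymes was then −0.36, against −0.11 for all genes, and −0.21 with quantile scaling. The regulators' median was 0.06 when centred and −0.09 with the stricter filter. Without a filter, 624 probe sets fell, and 1 fatty acid enzyme and 1 other fatty acid gene rose while 0 fatty acid enzymes and 0 other sterol genes fell. The stricter filter left 1 other fatty acid gene that rose, and the mean of probe sets left 0 regulators and 0 other fatty acid genes that fell.

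Leaving out 1 couple gave 800.0 to 1704 probe sets that rose and 392 to 1103 that fell. It gave 5 to 9 sterol enzymes that fell, 1 to 2 fatty acid enzymes that rose and 0 to 1 that fell, 0 to 1 regulators that fell and 0 to 1 other sterol genes that fell. It gave 1 to 2 cholesterol handling genes that fell, 0 to 3 other fatty acid genes that rose and 7 to 10 oxidation genes that rose.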
